A study of Mus musculus with 6 samples.

Results

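TNF-α in differentiated cultures of C2C12, a line of mouse myoblasts that fuse into myotubes, the multinucleated forerunners of muscle fibres, in low-serum medium, was described by setting the array of the treated culture against the array of the untreated culture in the same medium. These 2 arrays were chosen by their labels out of 6 in the series. The treated culture was kept in 10% FBS, moved to 2% differentiation medium, given TNF-α at 50 ng/ml on day 4 and harvested on day 5. Its untreated counterpart was moved to the same medium and harvested on day 5. A second pair was used for comparison, a culture in 10% FBS (growth medium) given the same dose for 24 h and an untreated culture in growth medium. The other 2 arrays, of cultures given 10 nM BTZ, helped to set the floor described below and are quoted for 4 genes. The labels name the cell type as myoblasts in every group, so the differentiated state was checked from marker genes. Total RNA was measured on 1 Affymetrix whole-transcript array per group, so no difference below has an error or a test, and the number of arrays limits the precision.

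TNF-α is a cytokine that binds a receptor (encoded by Tnfrsf1a) present on most cells. The receptor recruits adaptor proteins and ubiquitin ligases, which switch on the IKK kinases. These mark the IκB inhibitors for destruction, and the transcription factor NF-kB then enters the nucleus and switches on inflammatory genes together with its own inhibitors. In skeletal muscle TNF-α is known as a mediator of inflammation and has been linked to muscle wasting.

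Values are deposited log2 signals, and a difference of 1 on this scale is 2-fold. Genes whose signal stayed below the median of all values (5.06, called the floor) on all 6 arrays were set aside, which left 13652 of 22180. The array medians lay between 5.01 and 5.11. With TNF-α, 274 of the 13652 genes lay past 2-fold upward (2.01%) and 120 past 2-fold downward (0.879%), 2.89% in all. Past 2-fold stands for a difference of at least 2-fold throughout. List counts below are to be read beside the shares of all genes, 2.01% upward and 0.879% downward. The log2 differences had a median of 0.01 and an SD across genes of 0.45. The tail was longer upward: 26 genes were higher by 3 or more on the log2 scale and 4 were lower by as much. Of the 274 higher genes 64 lay under the floor on the untreated array, where a fold may be compressed by background.

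The differentiated state of both cultures was read from 12 myotube markers. All 12 reached the floor on both arrays in differentiation medium, against 7 with TNF-α and 8 untreated in growth medium. Myogenin (Myog), which drives terminal differentiation, read 10.59 with TNF-α and 10.90 untreated, against 5.97 and 6.71 in growth medium with and without TNF-α. The fusion protein myomaker (Mymk) read 11.45 with TNF-α and 11.65 untreated, and the embryonic myosin Myh3 read 10.42 and 11.05. All 12 markers were lower with TNF-α, by between 0.13 and 0.63 on the log2 scale, and none reached 2-fold. Their summed linear signal was 21565 with TNF-α and 26672 untreated, against 542 and 739 in growth medium. In bulk RNA, fewer cells of a type and less RNA per cell cannot be told apart.

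Signs of blood cells were looked for because many of the highest genes are also made by phagocytes. Of 19 measured macrophage and leukocyte markers 5 reached the floor with TNF-α and 5 without, and the summed linear signal of the list was 510.2 with TNF-α and 531 untreated. The common leukocyte antigen Ptprc read 3.29 and 3.22, the macrophage receptor Adgre1 read 3.93 and 3.96, and the receptor Csf1r read 4.62 and 4.74, all under the floor. Fcer1g, the signalling chain shared by Fc receptors and the lectin receptor Clec4e, read 5.87 with TNF-α and 5.16 untreated. None of the 19 was past 2-fold. Outside that list, and named after their values were seen, some genes best known from leukocytes were past 2-fold upward. Spib had a log2 difference of 2.47. Lilrb4a read 6.24 with TNF-α and 3.17 untreated, Slamf8 6.85 and 5.37, Cd33 7.11 and 5.93, and Cd53 8.14 and 7.08. The part of blood cells in the results was not tested. Endothelial markers gave 2 of 14 at the floor with TNF-α and 4 of 14 without, with summed signals of 356 and 412. The adipocyte list gave 5 and 3 of 13, with sums of 413 and 454. Of 18 markers of fibroblasts, bone and cartilage 10 and 9 reached the floor, and their sum was 5290.4 with TNF-α against 7899 untreated, with decorin (Dcn) lower by more than 2-fold.

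**Figure D1:**
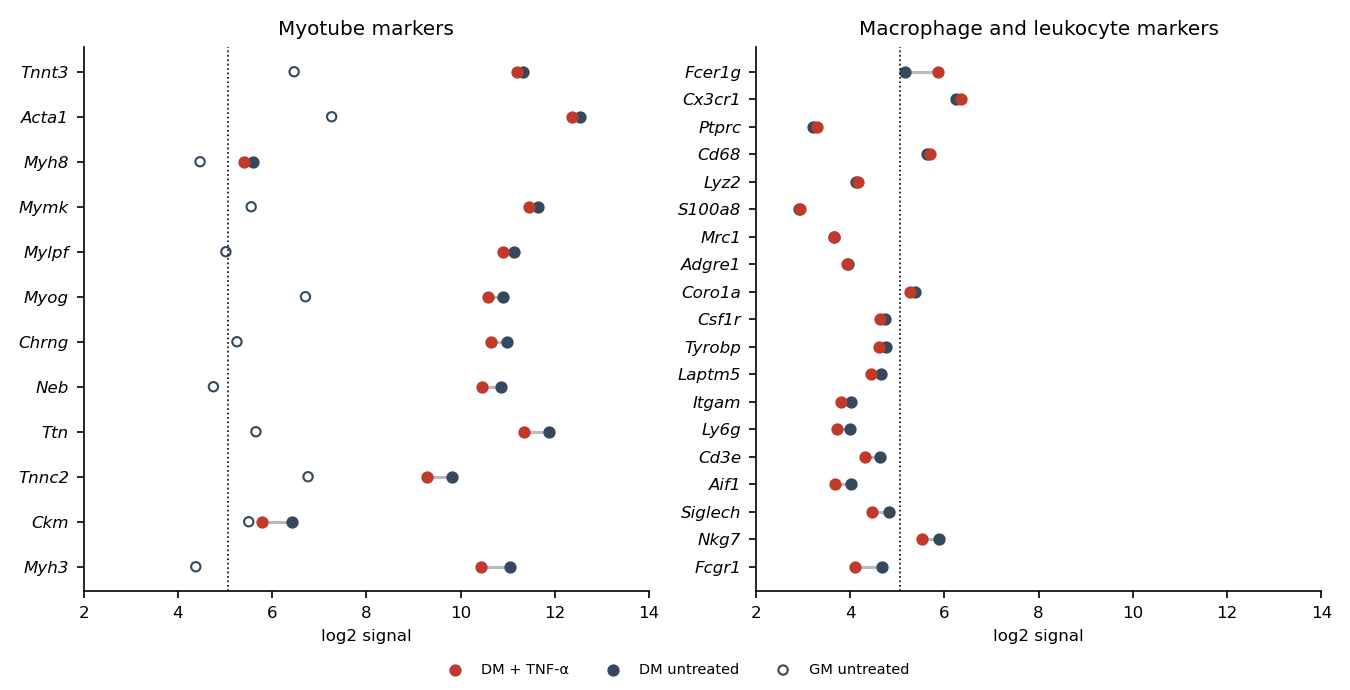
Log2 signal (horizontal axis) of myotube markers (left) and macrophage and leukocyte markers (right), 1 row per gene, with filled points for differentiation medium (DM) with TNF-α and untreated, open points for untreated growth medium (GM, left panel only) and a dotted line at the floor of 5.06. The filled points of the myotube markers lie close together, TNF-α below untreated in all 12, while Ptprc and Adgre1 stay under the floor on both arrays.

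The 4 genes used as markers of the response were all among the 16 with the highest differences. They were chosen with earlier results of these data known, so this rank follows from the choice and is no test. Saa3, an acute-phase serum amyloid protein, read 13.16 with TNF-α and 4.36 untreated, a 444-fold difference. Ccl5, a chemokine that attracts T cells and monocytes, read 12.67 and 4.37, or 315-fold. Complement factor B (Cfb), part of the alternative complement pathway, read 12.12 and 5.15, and Cxcl9, a chemokine for activated T cells, 9.87 and 4.35. On the BTZ array of the same medium the 4 genes read 4.43, 5.67, 5.39 and 4.21, so each was high on the TNF-α array alone among the 3 in differentiation medium. Other genes near the top were Clec4e, which senses damaged cells and mycobacteria, at 11.48 with TNF-α and 3.87 untreated, the monocyte chemokine Ccl2 at 12.70 and 6.09, and Cybb, the catalytic subunit of the phagocyte NADPH oxidase, at 10.11 and 4.30. The long pentraxin Ptx3 stood at 10.90 and 5.15.

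**Figure D2:**
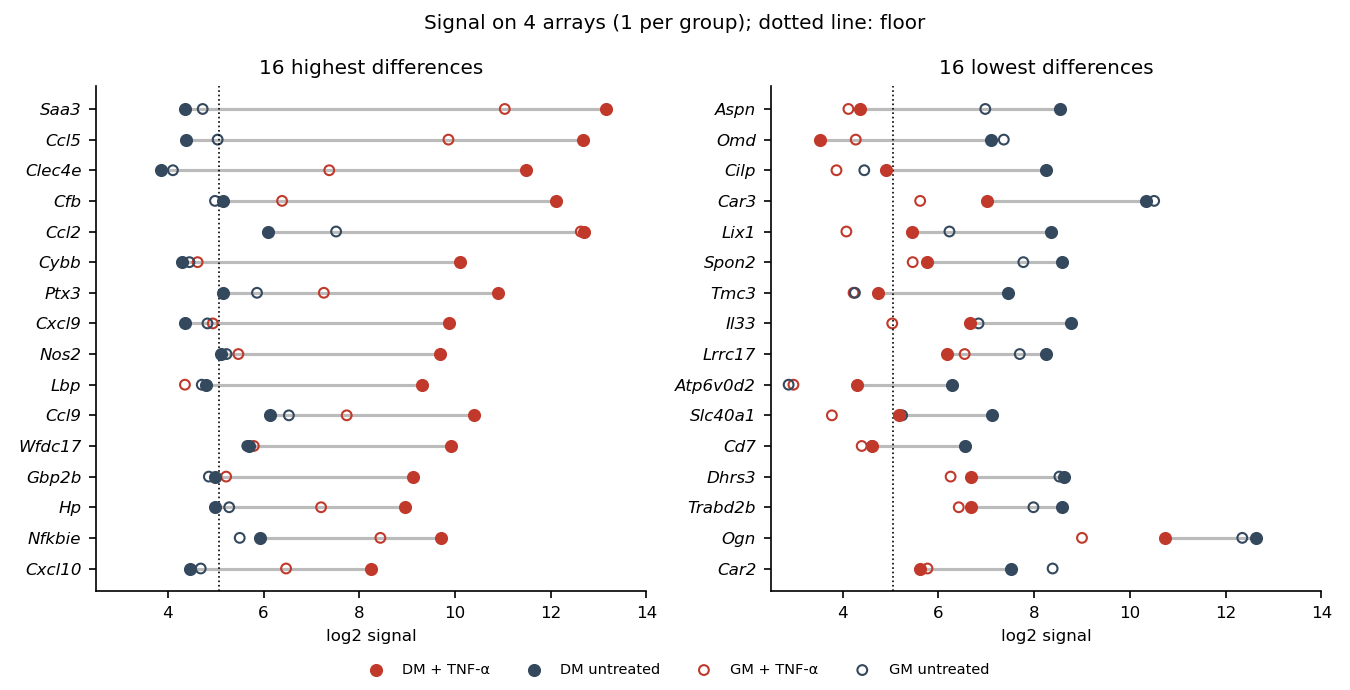
Log2 signal (horizontal axis) of the 16 genes with the highest (left) and the 16 with the lowest (right) difference with TNF-α in differentiation medium, with filled points for differentiation medium (DM), open points for growth medium (GM), red for TNF-α, dark for untreated, 1 array each, and a dotted line at the floor of 5.06. Saa3 spans 13.16 to 4.36 in differentiation medium, and for Cybb, Cxcl9, Lbp and Nos2 both growth-medium arrays stay close to the untreated level.

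The list of TNF receptors and their proximal signalling, which also holds ligands such as Tnf, was mostly within 2-fold. Of its 23 genes above the floor 2 were past 2-fold upward (8.70%, against 2.01% of all genes) and 0 downward. A difference above 0 was seen in 18, and the median was 0.30, against 0.01 for all genes. The main receptor gene Tnfrsf1a read 8.95 with TNF-α and 8.96 untreated, while the second receptor Tnfrsf1b read 8.96 and 8.06. The ubiquitin ligase Birc3, which holds the complex in its survival state, read 6.05 and 3.99, and the adaptor Traf5 read 7.35 and 6.19. Tnf lay under the floor on both arrays, at 4.81 and 4.76.

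The list of NF-kB subunits and feedback inhibitors stood higher as a group, though not in every member. Of 16 NF-kB subunit and feedback genes 9 were past 2-fold upward and 0 downward, 56.3% against the 2.01% of all genes, with a median of 1.04. Nfkbie and Nfkbia encode IκB proteins that hold NF-kB in the cytoplasm; Nfkbie read 9.71 with TNF-α and 5.92 untreated, and Nfkbia 10.78 and 7.60. Tnfaip3 encodes A20, an enzyme that edits ubiquitin on the receptor complex, and read 9.52 and 6.79. Its partners Tnip3 and Tnip1 read 7.71 and 9.63 with TNF-α, against 4.83 and 7.28 untreated. Among the subunits Relb differed by 1.40 and Nfkb2 by 1.37, whereas Rela differed by 0.61 and Rel by 0.21. Nfkbiz and Bcl3, nuclear members of the IκB family, differed by 1.07 and 1.02, and Bcl3 by 0.97 with quantile normalization. Among other inhibitors Zc3h12a differed by 0.86, Nfkbib by 0.53, Cyld by 0.38 and Tnip2 by -0.17. Otulin read 7.13 on both arrays, and Nfkbid lay under the floor at 4.17 with TNF-α and 4.50 untreated. Nfkb1 had no probe set of its own in the annotation used.

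The promoters of Nfkbia and of the chemokine gene Cxcl1, described below, are shown because an NF-kB type site (the letters GGGA, any 2 bases, then TTCC) lies close before their start. Each runs from 250 bases before to 50 bases after the annotated start, 5′ to 3′ on the gene's strand, from RefSeq on GRCm38.p6, with matches to the NF-kB type site and to the interferon and STAT type sites named below in capitals. The Nfkbia promoter is chr12:55492598-55492897 on the minus strand, with a match whose first base is at -29 from the start site. The Cxcl1 promoter is chr5:90890995-90891294 on the plus strand, with overlapping matches on both strands at -71 and -70.
Nfkbia: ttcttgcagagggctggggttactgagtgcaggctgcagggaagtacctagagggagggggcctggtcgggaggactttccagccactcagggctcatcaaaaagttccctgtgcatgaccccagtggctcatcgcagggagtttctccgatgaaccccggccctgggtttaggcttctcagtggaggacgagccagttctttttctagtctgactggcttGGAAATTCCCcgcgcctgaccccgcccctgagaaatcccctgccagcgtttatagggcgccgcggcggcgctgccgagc
Cxcl1: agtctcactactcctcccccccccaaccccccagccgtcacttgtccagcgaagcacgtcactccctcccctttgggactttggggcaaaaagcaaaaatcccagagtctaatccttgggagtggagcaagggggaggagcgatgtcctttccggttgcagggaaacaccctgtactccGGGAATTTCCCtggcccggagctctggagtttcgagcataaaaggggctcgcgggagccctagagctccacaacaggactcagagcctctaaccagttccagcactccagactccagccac

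Over all genes, 19 of 250 promoters of genes past 2-fold upward held the NF-kB type letters on either strand, overlapping matches included (7.6%). It was in 1 of 98 promoters of genes past 2-fold downward (1.02%) and in 199 of 13428 promoters of all genes above the floor (1.48%). Some genes have several promoters in the table, and 208 of the 274 higher genes, 83 of the 120 lower genes and 10658 of the 13652 genes had at least 1. By list, the letters were in 4 of 17 promoters of NF-kB subunit and feedback genes and 2 of 19 of housekeeping genes (10.5%). They were in 0 of 7 promoters of CC chemokines and 0 of 7 of acute-phase genes. With the wider NF-kB consensus, chosen after the data were seen, the shares were 18.4%, 4.08% and 5.29%, and 41.8% of 55 promoters of the genes at least 4-fold higher. These are matches of letters in a window, not measured binding.

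Chemokines made up many of the high differences. Of 11 CC chemokines above the floor 6 were past 2-fold upward and 0 downward, with a median of 2.33 (0.27 over all 19 measured). Besides Ccl5 and Ccl2 these were Ccl9, at 10.39 with TNF-α and 6.13 untreated, the monocyte chemokine Ccl7 at 11.77 and 8.29, Ccl8 at 10.18 and 7.53, and Ccl3 at 6.97 and 4.64. Ccl4 went the other way, at 5.26 and 5.92. Of 11 chemokines of the CXC, CX3C and XC families 7 were past 2-fold upward and 0 downward (median 2.15, and 0.32 over all 17 measured). They include chemokines for neutrophils and chemokines for T cells. Cxcl1 and Cxcl5, which attract neutrophils, read 10.00 and 10.57 with TNF-α, against 6.32 and 7.03 untreated. Cxcl9, Cxcl10 and Cxcl11, which share the receptor Cxcr3, differed by 5.52, 3.78 and 2.15. The membrane-bound Cxcl16 and Cx3cl1 differed by 3.15 and 2.01. Cxcl2, Ccl12 and Ccl20 were past 2-fold in neither direction, and the first pair lay under the floor.

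Among interleukins and colony-stimulating factors 6 of 19 above the floor were past 2-fold upward (31.6%, against 2.01% of all genes) and 1 downward. Their median was 0.31. Il6, a driver of the acute-phase response, read 7.51 with TNF-α and 5.03 untreated, and Il15, which sustains natural killer and memory T cells, 6.76 and 4.51. Csf1, the growth factor of macrophages, read 11.32 and 9.80, Lif read 8.35 and 6.97, and Il34, the other ligand of the Csf1 receptor, 6.88 and 5.72. Il1a read 5.42 and 3.74, whereas Il1b lay under the floor on both arrays at 4.40 and 4.11. The 1 lower member was the alarmin Il33, at 6.67 with TNF-α and 8.76 untreated.

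Acute-phase and complement genes were high in a few members only. Of 8 acute-phase genes above the floor 5 were past 2-fold upward, with a median of 2.95, but 14 of 22 measured lay under the floor and the median over all 22 was 0.25. After Saa3 and Ptx3 came Lbp, which carries bacterial lipopolysaccharide, at 9.31 with TNF-α and 4.79 untreated, haptoglobin (Hp) at 8.96 and 4.99, and the copper carrier ceruloplasmin (Cp) at 11.81 and 9.89. Lcn2, an iron-binding acute-phase protein, read 4.92 and 4.89. Of 13 complement genes 3 were past 2-fold upward and 0 downward (median 0.15). Besides Cfb they were the protease gene C1s1, at 5.13 and 3.90 with probe sets that differed by 1.82 and 0.63, and its inhibitor Serping1 at 8.75 and 7.58.

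Receptors and enzymes of innate immunity were high in single members. Of 21 pattern recognition genes 5 were past 2-fold upward (median 0.42), namely Clec4e, the lipoprotein receptor Tlr2 at 8.97 with TNF-α and 6.50 untreated, the RNA sensors Tlr3 and Ddx58 at 7.57 and 8.16 against 5.69 and 6.65, and the DNA pathway adaptor Sting1 at 8.21 and 6.65. In the list of nitric oxide, oxidant and prostaglandin enzymes 7 of 27 were past 2-fold upward and 2 downward (median 0.07). Inducible nitric oxide synthase (Nos2) read 9.69 with TNF-α and 5.12 untreated, and Gch1, which makes its cofactor, 7.01 and 4.98. The neuronal isoform Nos1, which muscle fibres carry, read 5.81 and 7.14.

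The oxidase subunits of the same list differed in direction. Cybb differed by 5.81 and the cytosolic subunit Ncf4 by 1.96, but their partners Cyba and Ncf1 read 5.69 and 4.86 with TNF-α, against 5.94 and 5.63 untreated. The constitutive oxidase Nox4 read 7.17 and 8.57. Mitochondrial superoxide dismutase (Sod2) read 11.54 and 9.62 and the extracellular form Sod3 8.86 and 7.31. Ch25h, which makes 25-hydroxycholesterol, read 9.52 and 5.98, with probe sets that differed by 4.48 and 2.59. Of 13 adhesion genes for leukocytes 2 were past 2-fold, Vcam1 at 11.97 with TNF-α and 9.53 untreated and Icam1 at 7.04 and 5.05, with a list median of 0.03.

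Some interferon-type genes were past 2-fold upward. Of 8 guanylate-binding and immunity-related GTPases above the floor, which attack the vacuoles of intracellular microbes, 6 were past 2-fold upward and 0 downward, with a median of 1.78 (0.95 over all 14 measured). Gbp2b read 9.13 with TNF-α and 5.00 untreated, Gbp7 7.11 and 4.16, and Gbp5 6.45 and 3.61. Of the 8, 5 lay under the floor on the untreated array. Outside the 8, Gbp4, Gbp6, Gbp8, Gbp11, Igtp and Irgm2 lay under the floor on both arrays. Of these Irgm2 differed by 1.20, at 4.77 and 3.57, and was not counted. With both arrays required at the floor, 1 GTPase was past 2-fold upward and the median was 0.70. Of 33 antiviral interferon-stimulated genes 12 were past 2-fold upward and 0 downward (36.4%, median 0.88), and 21 were within 2-fold. Another 14 of the 47 measured lay under the floor, and the median over all 47 was 0.55. The nucleic acid sensor Zbp1 read 8.43 with TNF-α and 5.61 untreated, Parp14 8.01 and 5.36, Oasl2 6.45 and 4.11, Ifit1 6.69 and 4.90, and the ubiquitin-like protein Isg15 5.55 and 4.16.

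The signalling genes upstream of this group were measured as well. Of 26 JAK, STAT, IRF and SOCS pathway genes 6 were past 2-fold upward and 0 downward (median 0.43). The kinase Jak2 read 11.26 with TNF-α and 9.17 untreated, the transcription factor Irf1 8.71 and 6.71, and the interferon-gamma receptor chains Ifngr1 and Ifngr2 9.88 and 9.99 against 8.22 and 8.74. Ifnar2 differed by 1.23 and the oncostatin receptor Osmr by 1.23. Ifnb1, the interferon-beta gene, lay under the floor at 3.12 and 3.53, and the feedback inhibitors Socs1 and Socs3 differed by -0.31 and 0.40.

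Promoters of 4 genes of the interferon group or of both groups are shown because they hold an interferon response type site (the letters GAAA, any 2 bases, then GAAA, on either strand). The layout is the same, and capitals also mark the STAT type site (the letters TTC, any 3 bases, then GAA). The Gbp2b promoter is chr3:142594597-142594896 on the plus strand, with an interferon type match at -137. The Gbp5 promoter is chr3:142496684-142496983 on the plus strand, with an interferon type match at -165, an NF-kB type match at -77 and STAT type matches at -245 and -52. The Isg15 promoter is chr4:156200769-156201068 on the minus strand, with 3 overlapping interferon type matches at -78, -72 and -66. The Cxcl10 promoter is chr5:92348840-92349139 on the minus strand, with an interferon type match at -213 and an NF-kB type match at -159.
Gbp2b: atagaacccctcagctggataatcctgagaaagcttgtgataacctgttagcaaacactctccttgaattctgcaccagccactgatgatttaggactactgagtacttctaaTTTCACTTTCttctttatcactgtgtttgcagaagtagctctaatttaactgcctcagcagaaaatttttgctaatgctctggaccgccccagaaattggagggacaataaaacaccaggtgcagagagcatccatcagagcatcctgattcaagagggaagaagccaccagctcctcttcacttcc
Gbp5: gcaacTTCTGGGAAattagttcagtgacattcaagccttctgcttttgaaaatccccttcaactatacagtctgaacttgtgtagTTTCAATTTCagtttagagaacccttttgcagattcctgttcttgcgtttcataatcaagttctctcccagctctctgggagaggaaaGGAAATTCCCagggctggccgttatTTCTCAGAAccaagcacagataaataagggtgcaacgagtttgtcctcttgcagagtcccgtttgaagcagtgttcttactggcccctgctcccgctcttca
Isg15: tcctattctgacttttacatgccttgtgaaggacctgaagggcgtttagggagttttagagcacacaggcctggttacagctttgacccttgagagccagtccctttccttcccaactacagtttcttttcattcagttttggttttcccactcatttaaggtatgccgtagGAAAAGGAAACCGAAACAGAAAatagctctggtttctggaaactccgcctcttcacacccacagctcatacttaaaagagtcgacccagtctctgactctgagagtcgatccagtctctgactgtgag
Cxcl10: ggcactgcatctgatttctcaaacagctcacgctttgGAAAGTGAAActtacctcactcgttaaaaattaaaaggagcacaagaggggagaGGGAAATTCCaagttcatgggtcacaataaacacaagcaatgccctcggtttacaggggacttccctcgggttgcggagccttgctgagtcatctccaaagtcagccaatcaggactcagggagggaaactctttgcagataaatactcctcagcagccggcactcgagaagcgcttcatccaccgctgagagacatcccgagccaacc

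The interferon type letters were in 24 of 250 promoters of genes past 2-fold upward (9.6%), 2 of 98 of genes past 2-fold downward (2.04%) and 385 of 13428 of all genes above the floor (2.87%). Of the 5 GTPase genes with a promoter in the table all 5 held them, and of 27 antiviral genes 11 did. The 7 promoters of CC chemokines and the 17 of NF-kB subunit and feedback genes held 0. Ribosomal protein genes, with 0 of 27 past 2-fold, held them in 5 of 26 promoters (19.2%). The STAT type letters had shares of 8.4%, 8.16% and 6.64% in the same order of gene groups.

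Antigen presentation genes were higher in class I. Of 20 class I and immunoproteasome genes 10 were past 2-fold upward and 0 downward (50.0%, median 0.98). Psmb10 and Psmb8, catalytic subunits that replace the constitutive ones in the immunoproteasome, read 9.66 and 6.49 with TNF-α, against 6.87 and 5.31 untreated. Psmb9 of the same list lay under the floor at 4.55 and 4.37, and Psme2 read 6.94 and 7.13. The peptide trimmer Erap1 read 9.36 and 7.01, the class I chain H2-K1 8.72 and 6.70, and the peptide-loading protein Tapbp 8.89 and 7.52, with probe sets that differed by 2.30 and 0.43. B2m, the light chain of class I, read 12.82 and 11.93. Of the 6 genes above the floor in the class II presentation list, which include Cd40 and Cd80, 0 were past 2-fold (median -0.16). Another 8 of the list lay under the floor. The class II regulator Ciita read 5.04 with TNF-α and 5.29 untreated.

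Death and survival genes were higher in part. Of 23 members 6 were past 2-fold upward (26.1%, against 2.01% of all genes) and 0 downward (median 0.46). They were the early response gene Ier3 at 11.08 with TNF-α and 9.02 untreated, the inflammatory caspases Casp4 at 9.80 and 7.79 and Casp1 at 7.53 and 6.21, the death receptor Fas at 9.78 and 8.18, the necroptosis effector Mlkl at 8.80 and 7.55, and Tnfaip2 at 10.20 and 9.01. Of 29 immediate early genes 3 were past 2-fold upward (10.3%, median 0.32). These were Ier3 again with Egr2 at 8.46 and 7.25 and Myc at 9.45 and 8.41. Heat shock and integrated stress genes had a median of 0.17 with 0 of 23 past 2-fold, and NRF2 targets one of 0.04 with 0 of 18.

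**Figure D3:**
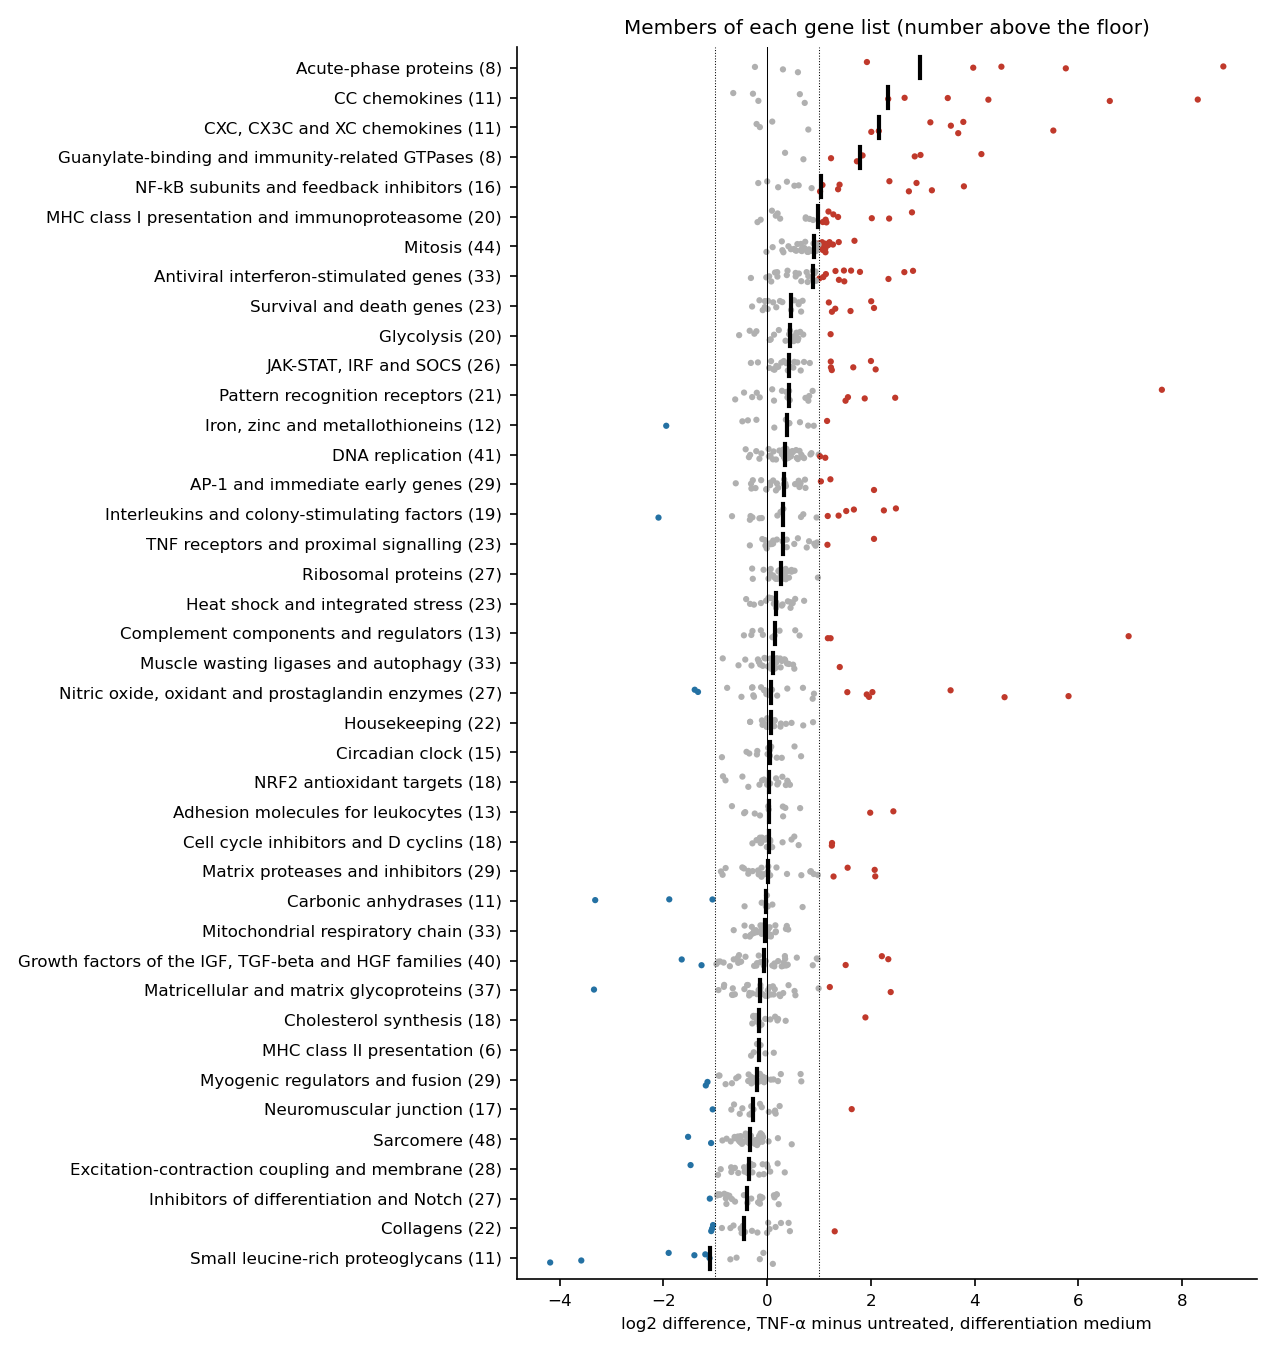
Log2 difference of TNF-α minus untreated in differentiation medium (horizontal axis) for each member above the floor of 41 gene lists (rows, ordered by median, number of members in brackets), with red points past 2-fold upward, blue points past 2-fold downward, grey points between, and a black bar at the list's median. Acute-phase genes stand at the top with a median of 2.95 and small leucine-rich proteoglycans at the bottom with -1.11, while sarcomere genes cluster just below 0.

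Most muscle genes were within 2-fold, and most had a difference below 0. Of 48 sarcomere genes above the floor 45 had a difference below 0, with a median of -0.33 against 0.01 for all genes. Past 2-fold downward were 2 of the 48, a larger share than the 0.879% of all genes. The slow myosin-binding protein gene Mybpc1 read 4.96 with TNF-α and 6.49 untreated, and the fast myosin Myh4 6.73 and 7.81. The slow myosin Myh7 read 5.31 and 6.17, and the slow troponin Tnnt1 8.31 and 9.09. In the excitation-contraction list 24 of 28 lay below 0 and 1 was past 2-fold (median -0.34), the potassium channel Kcnj2 at 6.75 and 8.22. The junctional protein Trdn read 8.41 and 9.31.

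Regulators of the muscle programme were also mostly within 2-fold, though their share past 2-fold downward again exceeded the 0.879% of all genes. Of 29 myogenic and fusion genes 23 lay below 0 and 2 were past 2-fold downward (median -0.20), Igfn1 at 4.96 with TNF-α and 6.15 untreated and the cadherin Cdh15 at 8.53 and 9.68. Myod1, a determination factor, read 8.81 and 9.73, and Pax7, which marks satellite cells, 7.12 and 8.06. Inhibitors of differentiation and Notch genes were also below 0 in 22 of 27 (median -0.38), with Hey1, a Notch target, at 5.95 and 7.06 as the 1 past 2-fold. At the neuromuscular junction Nrg1, a ligand of muscle ErbB receptors, read 10.01 with TNF-α and 8.38 untreated, and the agrin receptor Lrp4 9.55 and 10.60. The other 15 junction genes were within 2-fold.

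The ligases best known from wasting muscle did not stand out. Trim63 read 7.08 with TNF-α and 6.73 untreated, and Fbxo32 8.77 and 8.95. In growth medium Fbxo32 read 9.01 with TNF-α and 7.53 untreated. Of 33 wasting and autophagy genes 1 was past 2-fold upward, 3.03% against 2.01% of all genes, and 0 downward (median 0.12). The 1 was the mitophagy receptor Bnip3 at 8.75 with TNF-α and 7.35 untreated in differentiation medium.

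Mitotic genes stood out among the cell cycle lists. Of 44 mitotic genes 15 were past 2-fold upward (34.1%, against 2.01% of all genes) and 0 downward. A difference above 0 was seen in 43 of the 44 genes, and the median was 0.91. Their summed linear signal was 7898 with TNF-α and 4562 untreated, against 37205 and 30229 in growth medium. Whether cells divided was not tested. The checkpoint kinase Bub1 read 6.76 with TNF-α and 5.07 untreated, the cytokinesis protein Anln 8.71 and 7.32, survivin (Birc5) 5.87 and 4.61, and Mki67, which marks dividing cells, 9.11 and 8.05. Of 41 DNA replication genes 2 were past 2-fold upward (4.88%, against 2.01% of all genes) and 0 downward, with a median of 0.35. They were Tk1 at 7.72 and 6.60 and Uhrf1 at 6.86 and 5.84, a log2 difference of 0.99 with quantile normalization. Of 18 cell cycle inhibitors and D cyclins 2 were past 2-fold upward (11.1%). They were cyclin D1 (Ccnd1) at 9.11 and 7.86 and its kinase Cdk6 at 8.89 and 7.64. The median of that list was 0.03. The inhibitor Cdkn1a read 12.25 with TNF-α and 12.38 untreated.

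Small leucine-rich proteoglycans, which organise collagen fibrils, had the lowest median of the lists drawn. Of 11 above the floor 6 were past 2-fold downward and 0 upward (54.5%, against 0.879% of all genes), with a median of -1.11. Over all 15 measured the median was -0.71, and with both arrays required at the floor it was -0.63 with 3 past 2-fold downward, when the list of inhibitors of differentiation and Notch had a lower median of -0.65. Asporin (Aspn) read 4.36 with TNF-α and 8.54 untreated, osteomodulin (Omd) 3.52 and 7.11, and osteoglycin (Ogn) 10.74 and 12.64. Ecm2 differed by -1.40, Prelp read 6.96 and 8.16, with probe sets that differed by -1.64 and -0.74, and Dcn 10.06 and 11.17. Biglycan (Bgn) read 11.92 and 11.99, and showed little difference. The summed signal of the fibroblast, bone and cartilage markers, which include Dcn, was also lower with TNF-α (5290.4 against 7899 linear units untreated), and its part in this result was not tested.

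Other matrix genes were mixed. Of 22 collagen genes 3 were past 2-fold downward and 1 upward (median -0.45). Col6a2 and Col6a3, of the microfibrils around muscle fibres, read 8.56 and 6.95 with TNF-α, against 9.64 and 8.01 untreated, and the fibrillar Col3a1 10.85 and 11.89, a log2 difference of -0.99 with arrays shifted to the same median. Col5a3 differed by 1.30. Of 37 matrix glycoproteins 1 was past 2-fold downward, the cartilage protein Cilp at 4.91 and 8.25, and 2 upward, Ltbp2 at 10.00 and 7.62 and tenascin C (Tnc) at 10.37 and 9.16. Of 29 matrix proteases and inhibitors 4 were past 2-fold upward (13.8%, against 2.01% of all genes) and 0 downward (median 0.02). They were the gelatinase Mmp9 at 7.25 with TNF-α and 5.17 untreated, the aggrecan-cleaving Adamts4 at 10.24 and 8.16, the collagenase Mmp13 at 5.69 and 4.14, and the stromelysin Mmp3 at 5.21 and 3.93.

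The other genes among the 16 lowest belong to several kinds. Lix1 read 5.44 with TNF-α and 8.35 untreated, and the matrix protein gene Spon2 5.75 and 8.58. Lrrc17 read 6.18 and 8.26, the proton pump subunit Atp6v0d2 4.31 and 6.28, and Trabd2b 6.68 and 8.58. Cd7, known from lymphocytes, read 4.62 and 6.56. Aspn, Omd, Cilp, Tmc3, Atp6v0d2 and Cd7 lay under the floor with TNF-α.

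Growth factors went both ways. Of 40 measured above the floor 3 were past 2-fold upward, 7.5% against 2.01% of all genes. Past 2-fold downward were 2, where the share of all genes was 0.879%, and the median was -0.05. Fgf7 read 8.45 with TNF-α and 6.11 untreated, the lymphatic growth factor Vegfc 8.90 and 6.69, and Hgf, which activates satellite cells, 8.78 and 7.27. Igf1, a growth factor of muscle, read 7.91 and 9.56, and Fgf21 6.24 and 7.50. With arrays shifted to the same median 5 members were past 2-fold upward.

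Metabolic genes were mostly within 2-fold, but so were genes as a whole, of which 2.89% were past 2-fold either way. Of 11 carbonic anhydrases 3 were past 2-fold downward, against 0.879% of all genes, and the median was -0.02. These were the muscle enzyme Car3 at 7.02 with TNF-α and 10.33 untreated, Car2 at 5.63 and 7.51 and Car13 at 9.14 and 10.19. The iron exporter Slc40a1 read 5.17 and 7.12, and the zinc importer Slc39a14 9.01 and 7.85. Of 20 glycolysis genes 16 had a difference above 0 and 1 was past 2-fold upward, 5% against 2.01% of all genes. This was Pfkl at 9.63 and 8.41, and the list median was 0.43. Of 18 cholesterol genes 1 was past 2-fold upward (5.56%), the exporter Abca1 at 7.45 and 5.56, with a list median of -0.15. Of 33 respiratory chain genes 0 were past 2-fold (median -0.04). Clock genes had 0 of 15 past 2-fold and a median of 0.05. Ribosomal proteins had a median of 0.26 with 0 of 27 past 2-fold, and 22 housekeeping genes one of 0.07 with a range of -0.33 to 0.88, the top being B2m.

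The same treatment in growth medium shares no array with this comparison. There 134 genes (0.982%) were past 2-fold upward and 139 (1.02%) past 2-fold downward. Past 2-fold upward in both media were 74 genes, 27.01% of the 274 in differentiation medium and 55.2% of the 134 in growth medium, and downward in both were 39, or 32.5% of 120 and 28.1% of 139. The 274 genes had a median difference of 1.37 in differentiation medium and 0.55 in growth medium, and the 120 lower genes -1.27 and -0.60. Since the genes were chosen on the first of each pair, a smaller value in the second is partly given by that choice. These values and the ones below have 1 array per group in each medium, and the difference between media was not tested.

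Gene groups differed in how the media compared. The GTPases had medians of 1.78 in differentiation medium and -0.05 in growth medium, with 6 and 0 of 8 past 2-fold upward. Of those 6, Gbp7, Gbp5, Gbp3 and Iigp1 reached the floor on the TNF-α array in differentiation medium and on none of the other 3 of these 4 arrays, so the choice of members fixes part of this contrast. The median in differentiation medium was 0.95 over all 14 measured, and 0.70 with 1 past 2-fold upward where both arrays had to reach the floor. Antiviral genes had medians of 0.88 and 0.10, and MHC class I genes 0.98 and 0.29. NF-kB subunits and inhibitors had 1.04 and 1.14, with 9 of 16 past 2-fold upward in each medium, and small proteoglycans -1.11 and -1.23, with 6 of 11 past 2-fold downward in each. The 44 mitotic genes had medians of 0.91 and 0.34, with 15 and 0 past 2-fold. Their levels also differed between media, with summed linear signals in untreated cultures of 4562 in differentiation medium and 30229 in growth medium.

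Single genes at the ends of this contrast were read on all 4 arrays. Cybb read 10.11 with TNF-α and 4.30 untreated in differentiation medium, and 4.62 and 4.45 in growth medium. Nos2 read 9.69 and 5.12, and then 5.47 and 5.23. Wfdc17, a secreted protease-inhibitor-like protein, read 9.91 and 5.69, and then 5.80 and 5.66. All 3 were high on 1 array of 4. Serpinb2, an inhibitor of plasminogen activators, leaned the other way, at 5.40 and 4.56 in differentiation medium and 9.85 and 5.55 in growth medium. The channel gene Tmc3 read 4.74 with TNF-α and 7.45 untreated in differentiation medium and lay at 4.23 and 4.26 in growth medium, under the floor. Ackr3, a scavenging receptor of Cxcl12, read 5.61 and 6.91, and then 7.34 and 6.64.

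**Figure D4:**
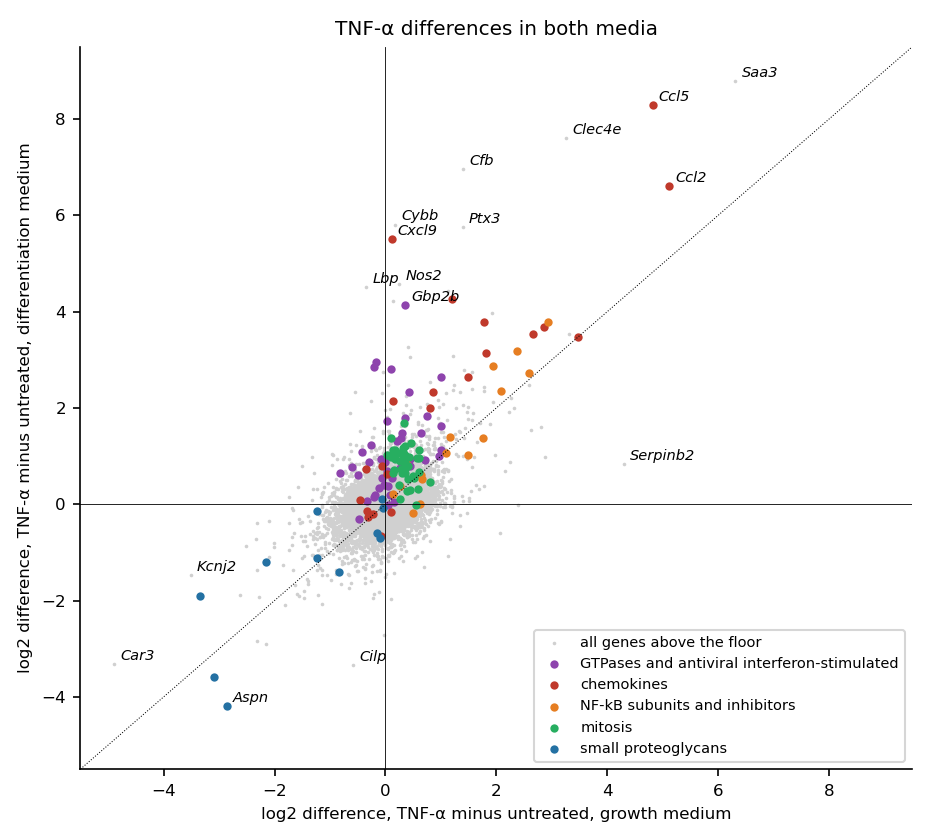
Log2 difference of TNF-α minus untreated in differentiation medium (vertical axis) against the same in growth medium (horizontal axis) for 13652 genes (grey) and 5 coloured gene groups, 1 point per gene, with a dotted line of equal differences. Cybb, Cxcl9, Lbp, Nos2 and Gbp2b lie near 0 on the horizontal axis and above 4 on the vertical axis, while NF-kB subunits and inhibitors lie closer to the line.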

How the data were processed

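The labels describe total RNA from TRIzol extracts, checked on a Bioanalyzer, amplified and labelled with biotin by an Affymetrix whole-transcript kit. The authors deposited 1 value for each probe set on each array, read here as a log2 signal because of its range. How it was background-corrected, summarized and normalized is not given in the sources used here. No further scaling was applied.

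Of 41345 probe sets, 23521 named 1 gene symbol, 1814 several and 16010 none in the platform annotation. Probe sets that name 1 gene were averaged to give its log2 signal. Of those, 23328 had an Entrez number in RefSeq, with 0 different symbols. For each gene the log2 signal of the untreated array was subtracted from that of the TNF-α array of the same medium, with Python 3.11.15, pandas 2.3.3 and numpy 2.4.6. Genes 2-fold or more apart were counted. No test was run, since each group has 1 array. The calculation was tested on simulated data.

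The 46 gene lists (1252 entries, 1148 matched to a measured gene), the response markers and the comparison itself were chosen with earlier results of these data known. Named genes were the 16 highest and 16 lowest, up to 6 members per list with the largest difference, list members past 2-fold, members under the floor, marker genes and the 8 leaning most to each medium. Predicted genes, small RNAs and receptor families were left out of the rankings. Some further genes, mainly list members, were named, for their role, after their values were seen. Alternatives were 2 scalings, 3 floors, the highest probe set per gene and genes with 1 probe set.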

Additional observations from a re-analysis of the deposited data

Results flagged for a closer look

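Probe sets outside the gene table showed differences that the comparison does not use. Of 8413 probe sets above the floor with no gene named, 395 lay past 2-fold upward with TNF-α in differentiation medium and 328 downward, together 8.59%. Among the 13652 genes these were 274 and 120, together 2.89%. The unnamed probe sets had a highest difference of 7.48 and a median of -0.02, and whether their differences exceed noise was not tested. Of 1062 probe sets that name several genes, 20 lay past 2-fold upward and 3 downward, or 2.17% in all.

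Uchl3, a ubiquitin hydrolase gene, was past 2-fold in opposite directions in the 2 media. It read 3.33 with TNF-α and 4.39 untreated in differentiation medium, both under the floor, and 5.42 and 4.30 in growth medium. The 2 TNF-α differences, -1.07 and 1.13, are 2.19 apart (-2.19 as differentiation minus growth medium), and this was not tested.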

How the results depend on the processing

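Each group has 1 array, so no replicate could be left out. No paired analysis was possible because the groups share only replicate number 1. Under the 7 alternatives between 210 and 312 genes lay past 2-fold upward and between 77 and 150 downward. The count of lower genes was 77 with the floor at the upper quartile of all values, against 120, as fewer genes are then counted. The share of higher genes among those past 2-fold lay between 66.0% and 74.0%. Of 308 genes chosen by rule, H2-Eb1 and U90926, both within 2-fold, changed sign with a scaling. Some genes named for their role were not in this check. Among them were genes with a difference near 0, such as Tnfrsf1a (-0.009), whose sign is not to be relied on. Quantile normalization kept 160 of 165 named calls and shifting the arrays to the same median kept 164. The median of all genes was -0.02 with the first and 0.06 with the second, against 0.01. They turned the sign of the list medians closest to 0, those of carbonic anhydrases (0.02 with shifted arrays), clock genes (-0.004 with quantile normalization), matrix proteases (-0.01, quantile), respiratory chain (0.01, shifted) and NRF2 targets (-0.01, quantile), and of macrophage markers (0.11 and 0.09). Requiring both arrays at the floor leaves out genes under it on either. Past 2-fold upward were then 1 GTPase (median 0.70), 2 acute-phase genes, 4 CXC-type chemokines and 3 interleukins (median 0.05). So were 4 nitric oxide and oxidant enzymes, 2 matrix proteases, 1 adhesion gene and 1 gene of the TNF receptor and signalling list. Past 2-fold downward were 3 small proteoglycans, 0 matrix glycoproteins, 1 sarcomere gene and 1 myogenic gene. With the highest probe set, Ch25h differed by 4.48, Tapbp by 2.30 and H2-Q4 by 2.01. Background signal limits all folds from genes under the floor.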

Other observations

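Some further groups, put together after their values were seen, are given as a description. Some genes of retinoid handling, picked from those past 2-fold downward, were the following: the retinal reductase Dhrs3 read 6.69 with TNF-α and 8.61 untreated, the retinoic acid carrier Crabp2 8.62 and 9.98, the alcohol dehydrogenase Adh7 7.40 and 8.79, and the retinoic acid-making enzyme Aldh1a3 4.94 and 5.95. Aldh1a1 read 5.52 and 5.69. The imprinted genes Mest, Zim1 and Peg3 were picked in the same way. Mest read 6.27 with TNF-α and 8.10 untreated, Zim1 7.22 and 9.02, and Peg3 9.30 and 10.55, whereas Igf2 read 7.24 and 7.29. The chemokine Cxcl12 read 10.45 and 9.65, while its receptors Cxcr4 and Ackr3 read 8.23 and 5.61 with TNF-α, against 10.08 and 6.91 untreated. The interleukin-13 receptor chains Il13ra2 and Il13ra1 read 7.70 and 10.28 with TNF-α, against 4.43 and 8.58 untreated. Other genes outside the lists were the lipase inhibitor Angptl4 at 10.13 with TNF-α and 7.25 untreated, and the neuropeptide Y receptor Npy1r at 8.16 and 5.41.

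Some genes past 2-fold had a neighbour past 2-fold in the same direction, in the RefSeq gene order of 13632 genes above the floor (assembly GRCm38.p6). There were 25 runs of adjacent higher genes, holding 55 of the 274, and 8 runs of adjacent lower genes, holding 20 of the 120. Most genes past 2-fold had no such neighbour. The longest higher runs were Heatr9, Ccl5, Ccl9 and Ccl3, and Gbp5, Gbp7, Gbp3 and Gbp2b. Cxcl9, Cxcl10 and Cxcl11 formed another. Ecm2, Aspn, Omd and Ogn formed a lower run of 4, and Car13, Car3 and Car2 one of 3. Members of such families resemble each other in sequence, and whether their probe sets share signal was not tested.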
